A study of Mus musculus with 6 samples.

Results

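The cyclic nucleotide relaxation pathway of smooth muscle was followed through 10 genes: the cGMP-dependent protein kinase Prkg1, the phosphodiesterases Pde5a, Pde3a, Pde4b, Pde4d, Pde1a and Pde1c, and the natriuretic peptide receptors Npr1, Npr2 and Npr3. They were chosen by symbol, with earlier results of these data known. They make up 10 of the 54232 genes in the table, and each matched 1 row. Their transcripts were counted by RNA-seq in cells freshly isolated from mouse oviducts and labelled as muscle cells, in 3 libraries labelled WT and 3 labelled Pbrm1 cKO. Pbrm1 encodes a component of PBAF, a SWI/SNF complex that remodels chromatin. All females were 8 to 12 weeks old, had been mated, and were on day 2 of pregnancy, and all cells were plated for 4 h in 12% charcoal-stripped serum and then 2 h in 10% serum before RNA was taken. In the study's methods, Pbrm1 cKO females carry floxed Pbrm1 alleles and a Cre inserted in the progesterone receptor gene, so deletion is limited to cells that have expressed that receptor. The controls are WT in the labels and floxed females without Cre in the supplement of the study. For the Cre, those methods name the line B6.129S(Cg)-Pgrtm1.1(cre)Shah/J. The number of animals behind a library was not given in the sources used here, so p-values below measure the spread between these libraries, which may in part be technical.

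As background, smooth muscle relaxes when cGMP or cAMP rises. Nitric oxide raises cGMP through soluble guanylyl cyclase and natriuretic peptides raise it through NPR1 and NPR2, which are themselves guanylyl cyclases, while Gs-coupled receptors raise cAMP through adenylyl cyclases. cGMP acts on PRKG1, which lowers calcium release and activates myosin phosphatase, and cAMP acts on protein kinase A and on the EPAC exchange factors. Phosphodiesterases end the signal by hydrolysing the nucleotides, and NPR3 removes natriuretic peptides from the cell surface without making cGMP. In the oviduct, contraction and relaxation of this muscle move the embryo toward the uterus.

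Library totals lay between 15390818 and 18947947 counts. Levels within a gene are given as CPM, in which each library is brought to the same normalized depth, and between genes as RPKM, the same value per kilobase of exon. A floor of 3 counts corresponded to between 0.159 and 0.193 CPM and covers counting error only. Pbrm1 itself averaged 175 ± 7.09 CPM in WT against 45.6 ± 4.39 CPM in cKO (SD, n = 3), a log2 fold change of -1.94 (edgeR adjusted p = 9.13e-11). The first principal component took 76.4% of the variance and set the groups apart, with cKO replicate 2 nearest to WT at 23.4 against 30.7 and 32.2 for the other cKO libraries. Differences between groups were common: 43.7% of 15376 tested genes passed an adjusted p of 0.05, 21.9% higher in cKO and 21.8% lower. The median log2 fold change of all tested genes was 0.0016, which the normalization itself centres near 0, so changes below are relative to the typical gene.

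Of the 10 genes, 5 rose in cKO: Prkg1, Pde5a, Pde3a, Pde1a and Npr2. None fell at the threshold, 4 did not pass the test (Npr1, Npr3, Pde4b and Pde4d), and Pde1c was too low to be tested. Among the 9 tested genes this was 55.6% called, against the 43.7% over all tested genes, and 5 of 9 had groups that did not overlap, where 53.5% of all tested genes had none. All 5 calls were in the higher direction, which held 21.9% of all tested genes. The genes were chosen with earlier results of these data known, so these shares are a description and not a test. The median log2 fold change of the 9 was 0.30. None of the 5 increases reached 1 on the log2 scale. Every tested member had at least 111 counts in each library, so none entered the test through 1 group alone. In a bulk sample, more cells that express a gene and more RNA per cell cannot be told apart.

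**Figure D1:**
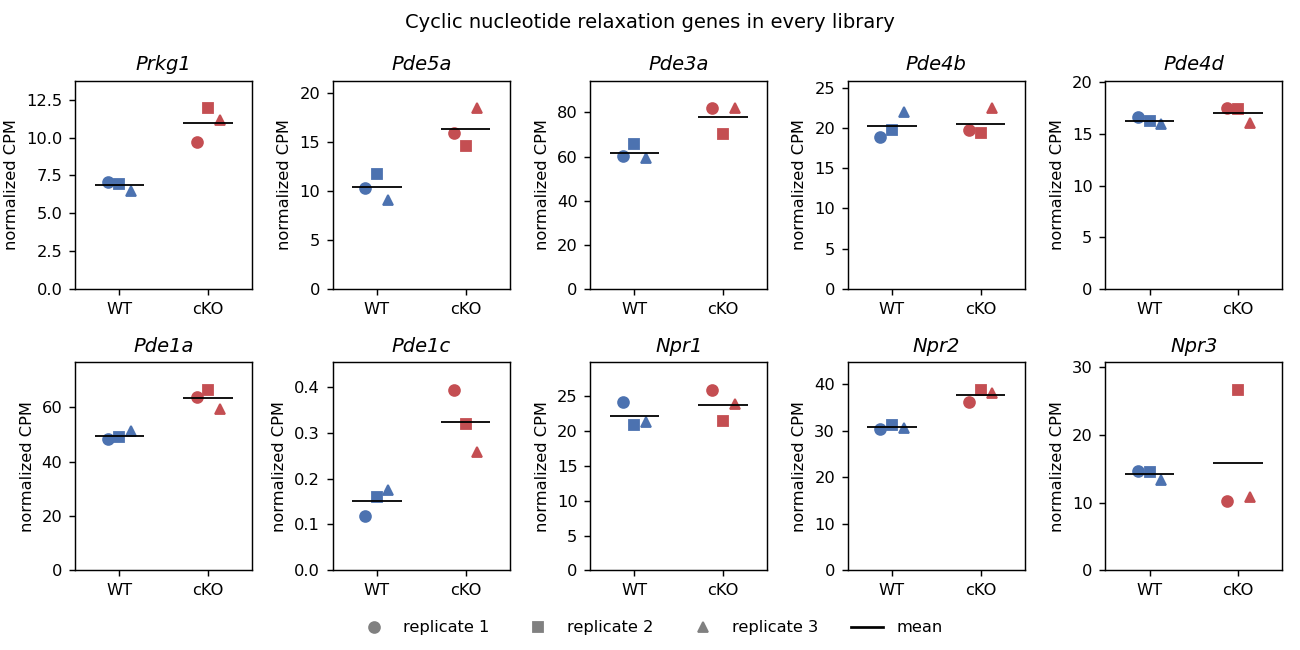
Normalized CPM of the 10 genes in each of the 6 libraries, with 1 panel per gene, an axis that starts at 0 in each, WT in blue, cKO in red, marker shapes for replicate numbers and a horizontal line at the group mean. Among the tested genes the groups are apart for Prkg1, Pde5a, Pde3a, Pde1a and Npr2 (Pde1c rests on at most 7 counts per library), while for Npr3 cKO replicate 2 is at 26.7 CPM and the other cKO libraries are at 10.2 and 10.8 CPM.

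Prkg1 (ENSMUSG00000052920.14), the kinase through which cGMP relaxes muscle, lies on GRCm38 chromosome 19, 30567551 to 31765033, minus strand. WT libraries held 7.09, 6.95 and 6.50 CPM of it and cKO libraries 9.73, 11.9 and 11.1 CPM. All 3 cKO libraries stood above all 3 WT libraries, and the WT libraries were close together. The mean rose from 6.85 ± 0.310 to 10.9 ± 1.12 CPM (SD, n = 3), with a log2 fold change of 0.67 (SE 0.11, 95% interval 0.43 to 0.92, edgeR adjusted p = 2.74e-04). This was the largest increase among the 9 tested genes, and 12.9% of all tested genes had a larger absolute change. The counts behind it were few, 111 to 225 per library.

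Prkg1 is read from alternative first exons that give the kinase isoforms Iα and Iβ, and a count per gene does not separate them. Because Prkg1 had the largest change, the bases before its starts are shown. RefSeq places starts at 2 points of GRCm38.p6 chromosome 19, and the 250 bases before each are printed 5′ to 3′ on the minus strand, from chr19:31765034-31765283 and chr19:31664371-31664620, with capitals for the GC box (GGGCGG, or CCGCCC when it stands on the other strand):
Prkg1 distal start: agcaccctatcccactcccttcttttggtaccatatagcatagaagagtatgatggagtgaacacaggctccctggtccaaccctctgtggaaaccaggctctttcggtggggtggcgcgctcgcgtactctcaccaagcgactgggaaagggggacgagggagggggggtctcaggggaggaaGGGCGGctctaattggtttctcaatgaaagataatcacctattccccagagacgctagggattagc
Prkg1 proximal start: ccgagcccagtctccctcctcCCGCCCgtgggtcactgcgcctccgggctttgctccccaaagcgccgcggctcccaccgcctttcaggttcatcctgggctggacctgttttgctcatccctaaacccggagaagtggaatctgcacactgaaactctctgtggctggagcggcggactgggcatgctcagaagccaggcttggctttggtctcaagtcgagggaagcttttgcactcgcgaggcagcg
Each window holds 1 GC box, in opposite orientations. In windows of 300 bases, 250 before and 50 after a start, 35.7% of 32851 RefSeq windows held a GC box on either strand. The Prkg1 windows held no cAMP response element (TGACGTCA, in 1.79% of all windows), no AP-1 site (TGANTCA, in 7.8%), no CArG box (in 1.63%) and no TATAAA (in 13.6%), searched on both strands. These are matches of letters and say nothing of binding.

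Pde5a (ENSMUSG00000053965.10, chromosome 3, 122728947 to 122859374, plus strand) encodes the cGMP-specific phosphodiesterase that sildenafil inhibits. It was at 10.3, 11.7 and 9.08 CPM in WT and at 15.9, 14.6 and 18.5 CPM in cKO. The lowest cKO library was above the highest WT library. The rise from 10.4 ± 1.32 to 16.3 ± 1.95 CPM was a log2 fold change of 0.65 (SE 0.11, 95% interval 0.40 to 0.89, edgeR adjusted p = 4.6e-04). Transcripts of the kinase that cGMP activates and of an enzyme that degrades cGMP were therefore both higher, by a similar amount. The ratio of Pde5a to Prkg1 per length was 1.2 ± 0.120 in WT and 1.2 ± 0.193 in cKO (SD, n = 3), a ratio chosen after the values were seen and not tested.

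Pde3a (ENSMUSG00000041741.10, chromosome 6, 141249269 to 141507448, plus strand) encodes a cAMP phosphodiesterase that cGMP inhibits, a link between the nucleotides. Its WT libraries were at 60.2, 65.5 and 59.5 CPM and its cKO libraries at 81.9, 70.1 and 81.9 CPM. cKO replicate 2 was the lowest of its group and still above every WT library. The mean went from 61.7 ± 3.27 to 78.0 ± 6.80 CPM, a log2 fold change of 0.34 (SE 0.066, 95% interval 0.19 to 0.48), with edgeR adjusted p = 1.1e-03.

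Pde1a (ENSMUSG00000059173.19, chromosome 2, 79834453 to 80129458, minus strand) encodes a phosphodiesterase that calcium and calmodulin switch on and that prefers cGMP. WT libraries were at 48.4, 48.9 and 51.2 CPM and cKO libraries at 63.9, 66.5 and 59.3 CPM. The groups did not overlap. Its log2 fold change was 0.35 (SE 0.058, 95% interval 0.23 to 0.48), from 49.5 ± 1.47 to 63.2 ± 3.66 CPM (edgeR adjusted p = 2.38e-04).

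Pde1c (ENSMUSG00000004347.16, chromosome 6, 56069804 to 56569103, minus strand), a relative that hydrolyses cAMP and cGMP, was barely detected. It had 2, 3 and 3 counts in the WT libraries and 7, 6 and 4 in the cKO libraries, 8 and 17 in all. The WT libraries were at or under the floor, and no fold or test is given. At this depth no difference in Pde1c could be measured, although its exons are the longest of the 10 genes at 20067 bases.

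The PDE4 enzymes hydrolyse cAMP only and are the targets of rolipram. Pde4b (ENSMUSG00000028525.16, chromosome 4, 102087543 to 102607259, plus strand) measured 18.9, 19.8 and 22.0 CPM in WT and at 19.7, 19.4 and 22.5 CPM in cKO. The groups overlapped throughout. Its log2 fold change of 0.02 had a 95% interval from -0.17 to 0.20 (edgeR adjusted p = 0.894), and its sign changed when single libraries were left out. Pde4d (ENSMUSG00000021699.17, chromosome 13, 108449948 to 109953461, plus strand) measured 16.6, 16.3 and 15.98 CPM in WT and 17.5, 17.5 and 16.02 CPM in cKO. Here cKO replicate 3 lay among the WT libraries. The interval of its log2 fold change of 0.06 ran from -0.11 to 0.23 (edgeR adjusted p = 0.55).

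Npr2 (ENSMUSG00000028469.15, chromosome 4, 43631935 to 43651244, plus strand) encodes the guanylyl cyclase receptor of C-type natriuretic peptide. It was at 30.3, 31.3 and 30.6 CPM in WT and at 36.2, 38.8 and 38.1 CPM in cKO. The libraries of each group were close together and the groups were apart. Npr2 rose from 30.7 ± 0.50 to 37.7 ± 1.35 CPM, a log2 fold change of 0.30 (SE 0.060, 95% interval 0.17 to 0.43, edgeR adjusted p = 1.32e-03). Npr1 (ENSMUSG00000027931.12, chromosome 3, 90450591 to 90465866, minus strand), the receptor of atrial and B-type peptides, was at 24.2, 20.9 and 21.3 CPM in WT and at 25.9, 21.4 and 23.9 CPM in cKO. These values overlapped, and replicate 1 was the highest library of each group. Its log2 fold change was 0.10, with a 95% interval from -0.09 to 0.29 (edgeR adjusted p = 0.376). Whether the changes of Npr1 and Npr2 differ was not tested.

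Npr3 (ENSMUSG00000022206.7, chromosome 15, 11839896 to 11907287, minus strand), the clearance receptor, depended on 1 library. It was at 14.7, 14.5 and 13.4 CPM in WT and at 10.2, 26.7 and 10.8 CPM in cKO replicates 1, 2 and 3, from 181, 503 and 168 counts. cKO replicates 1 and 3 were below every WT library and cKO replicate 2 was above every one. With all libraries the log2 fold change was 0.18 (SE 0.27, 95% interval -0.40 to 0.76, edgeR adjusted p = 0.622). Without cKO replicate 2 it was -0.43 and passed the threshold (edgeR adjusted p = 0.00218). Without that library the 5 genes that rose stayed past the threshold, at log2 fold changes of 0.61 for Prkg1, 0.72 for Pde5a, 0.41 for Pde3a, 0.32 for Pde1a and 0.28 for Npr2 (edgeR adjusted p from 1.54e-05 to 0.00247). The level in cKO replicate 2 was 2.47 times that of the higher of the other cKO libraries, and 33 of 15376 tested genes had a larger such ratio in that library. Over all 15376 tested genes, 68 stood more than 2-fold above both other cKO libraries in cKO replicate 2. In each of the other 5 libraries, between 21 and 34 genes stood that far above the rest of their group. Among genes with a mean of at least 10 CPM in their group, 5 of 9571 stood more than 2-fold above both other cKO libraries in cKO replicate 2 (Cx3cr1, Il11, Kif5c, Npr3 and Nrg1), and 0 did so in each of the other 5 libraries. These neighbours of Npr3 were named after the values were seen, and what sets the library apart was not tested.

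**Figure D2:**
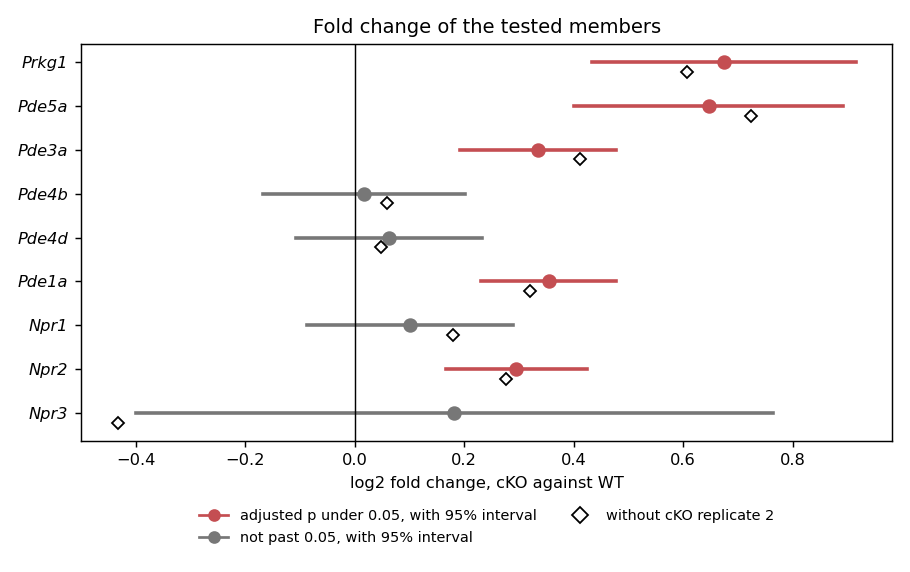
Log2 fold change, cKO against WT, of the 9 tested genes with all 6 libraries (dots, with 95% intervals as bars, red where the adjusted p was under 0.05) and without cKO replicate 2 (open diamonds). The intervals of Prkg1, Pde5a, Pde3a, Pde1a and Npr2 lie above 0, and Npr3 moves from 0.18 to -0.43 when that library is left out.

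Set against each other per length, the 10 genes spanned a wide range. In WT the order was Pde1a (8.23 ± 0.245 RPKM), Npr2 (6.58 ± 0.107), Pde3a (4.85 ± 0.257), Npr1 (4.62 ± 0.376), Pde4b (1.92 ± 0.152), Npr3 (1.51 ± 0.0780), Pde4d (1.36 ± 0.0260), Pde5a (1.06 ± 0.134), Prkg1 (0.878 ± 0.0397) and Pde1c (0.00755 ± 0.00148 RPKM; SD, n = 3). Only Pde3a and Npr1 were neighbours whose WT values overlapped. In cKO, Pde1a, Npr2, Pde3a, Npr1 and Pde4b kept the first 5 places, at 10.5, 8.08, 6.12, 4.96 and 1.94 RPKM. Below them, Pde5a (1.66 ± 0.198 RPKM) came to stand above Pde4d (1.42 ± 0.0698 RPKM), and the values of Prkg1 (1.40 ± 0.143 RPKM) overlapped with those of Pde4d. Npr3, at 1.69 ± 0.996 RPKM in cKO, overlapped with both of its neighbours, Pde4b and Pde5a. Among all detected genes, Pde1a stood at percentile 81.0 in WT and 84.1 in cKO, and Prkg1 at 57.0 and 60.7. The kinase was thus among the least abundant of the 10 transcripts in either group.

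The make-up of the phosphodiesterase transcripts was compared as shares of the summed per-length level of the 6 member phosphodiesterases. Pde1a took 47.3% ± 1.29 in WT and 48.5% ± 3.11 in cKO, and Pde3a took 27.8% ± 1.19 and 28.2% ± 2.15 (SD, n = 3). The shares of Pde4b and Pde4d were lower in every cKO library than in any WT library, at 11% ± 0.770 against 8.97% ± 0.748 and at 7.79% ± 0.298 against 6.53% ± 0.328. A share also falls when other genes of the sum rise, and the levels of Pde4b and Pde4d did not pass the test. The share of Pde5a was higher in every cKO library, at 7.67% ± 0.897 against 6.06% ± 0.739. With 3 libraries against 3, the exact two-sided permutation test cannot give a p below 0.1, which Pde5a, Pde4b, Pde4d and Pde1c reached (0.175 adjusted over 7 shares), so none passed the threshold. The share of Pde1c rests on 2 to 7 counts per library. Among the natriuretic peptide receptors, Npr2 took 51.8% ± 1.98 in WT and 54.9% ± 1.96 in cKO and Npr1 took 36.3% ± 2.01 and 33.8% ± 4.79. The Npr2 share also reached 0.1 in the exact permutation test and was not among the 7 adjusted shares. Its groups were barely apart, with WT replicate 2 at 53.17% and cKO replicate 2 at 53.23%. The share of Npr3 was 12.0%, 12.2% and 11.4% in WT and 7.60%, 18.2% and 8.05% in cKO, with cKO replicate 2 again the high one (exact permutation p = 1).

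**Figure D3:**
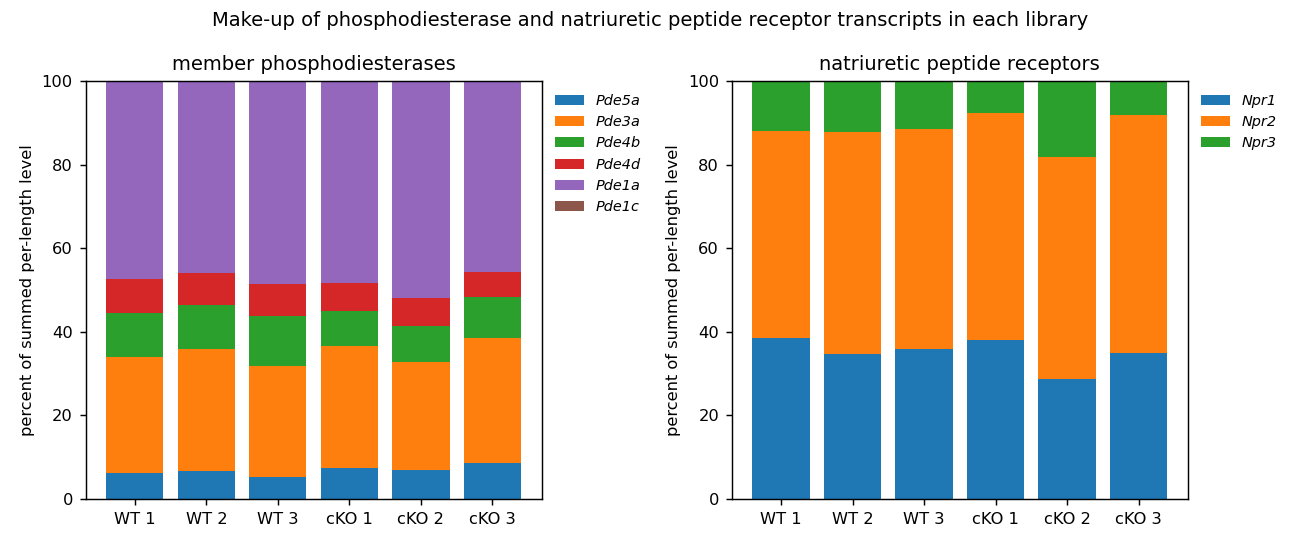
Stacked bars, 1 per library, of each gene's percent of the summed per-length level of the member phosphodiesterases (left) and of the natriuretic peptide receptors (right). Pde1a and Pde3a fill most of every bar on the left, and on the right the Npr3 segment is 18.2% in cKO replicate 2 against 7.60% and 8.05% in the other cKO libraries.

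The rest of the pathway was read from a list of 54 other genes in 12 roles. Of these, 43 could be tested and 22 were called (51.2%, against 43.7% of all tested genes), 14 higher and 8 lower in cKO, with a median log2 fold change of 0.11. The groups did not overlap for 24 of the 43, where the background was 53.5%. This list too was drawn up with earlier results of these data known. Both directions occurred within several roles, as the following values show.

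Transcripts for the signals themselves were scarce in these cells. None of the natriuretic peptide genes was abundant enough to test: Nppb, the highest of them per length, had 8, 9 and 13 counts in WT and 3, 5 and 7 in cKO. Of the nitric oxide synthases, Nos1 and Nos2 had at most 6 counts in any library. Nos3, the endothelial nitric oxide synthase, was at 1.54, 1.44 and 1.05 CPM in WT and at 3.37, 3.24 and 2.64 CPM in cKO, with no overlap. It rose by a log2 fold change of 1.20 (SE 0.21, edgeR adjusted p = 4.7e-04), on 18 to 27 counts in the WT libraries. Of 10 endothelial markers, Vwf and Egfl7 were higher (log2 fold changes of 1.71 and 0.45), Kdr was lower (-0.87) and 7 did not pass the test. Their summed level was 85.3% to 92.7% of the WT mean in cKO with Kdr and 96.7% to 113% without it (WT 97.1% to 102%), a split made after the values were seen. The part of endothelial cells in the Nos3 value was not tested.

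Soluble guanylyl cyclase, the nitric oxide receptor, is a dimer of an alpha and a beta subunit. Its alpha subunits moved in opposite directions. Gucy1a1 was at 15.8, 15.2 and 14.3 CPM in WT and at 24.1, 18.9 and 21.2 CPM in cKO (log2 fold change 0.50, SE 0.096, edgeR adjusted p = 8.39e-04). Gucy1a2 was at 3.13, 2.94 and 3.34 CPM in WT and at 1.80, 2.12 and 1.87 CPM in cKO (-0.69, SE 0.18, edgeR adjusted p = 0.00632), a call that DESeq2 did not make (adjusted p = 0.0523). Their ratio per length was 4.61 ± 0.462 in WT and 10.7 ± 2.14 in cKO (SD, n = 3), chosen after the values were seen. Gucy1b1, the beta subunit that both alpha subunits need, averaged 10.99 ± 1.39 CPM in WT against 10.3 ± 1.09 CPM in cKO and did not pass the test (-0.10, edgeR adjusted p = 0.514). Gucy1b2 had at most 1 count in any library.

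On the cAMP side, 4 of 9 tested adenylyl cyclases were called, all higher, a share of 44.4% against 43.7% over all tested genes. Adcy5 had the largest increase of them, from 5.20, 5.35 and 5.33 CPM in WT to 14.8, 12.0 and 13.3 CPM in cKO (log2 fold change 1.33, SE 0.11, edgeR adjusted p = 7.94e-07). Adcy2, at 1.80 ± 0.171 and 2.98 ± 0.475 CPM, and Adcy7, at 41.9 ± 2.79 and 52.7 ± 4.49 CPM, rose by 0.72 and 0.33 on the log2 scale (edgeR adjusted p = 0.00932 and 0.00186), and DESeq2 did not call Adcy2 (adjusted p = 0.0583). The most abundant cyclase per length, Adcy6, was at 12.0 RPKM in WT and 11.4 RPKM in cKO and did not pass the test (edgeR adjusted p = 0.263). Gnas, which encodes the stimulatory G protein subunit, rose from 687 ± 19.3 to 795 ± 11.7 CPM (0.21, edgeR adjusted p = 0.00117).

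Among kinases and their inhibitors, both directions occurred. Prkg2, the membrane-bound relative of Prkg1 known from intestine and bone, fell from 23.0, 23.9 and 25.0 CPM in WT to 19.8, 16.9 and 18.3 CPM in cKO (log2 fold change -0.39, SE 0.080, edgeR adjusted p = 0.00138). It was more abundant than Prkg1 in each library. The ratio of Prkg1 to Prkg2 per length was 0.212, 0.200 and 0.179 in WT and 0.338, 0.487 and 0.419 in cKO, a ratio chosen after the values were seen and not tested. Of 6 subunits of protein kinase A, 2 were called, both lower, a share of 33.3% against the same 43.7%. The regulatory subunit Prkar2a, the most abundant per length in WT (64.2 RPKM) and level with Prkar1a in cKO (51.9 ± 5.91 and 51 ± 1.81 RPKM), averaged 410 ± 6.90 CPM in WT against 331 ± 37.7 CPM in cKO (-0.31, edgeR adjusted p = 0.00173), with cKO replicate 2 at 374 CPM nearest to WT. The inhibitor Pkia fell by 0.44 on the log2 scale (28.0 ± 0.708 to 20.7 ± 2.72 CPM, edgeR adjusted p = 0.0013), and its relative Pkig rose by 0.34 (21.8 ± 1.54 to 27.6 ± 1.71 CPM, edgeR adjusted p = 0.00304). Neither EPAC gene passed the test, and Rapgef3, the more abundant, averaged 7.89 ± 0.235 CPM in WT against 6.07 ± 1.42 CPM in cKO (edgeR adjusted p = 0.0535).

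Of 9 other phosphodiesterases tested, 3 rose and 1 fell, 44.4% called against 43.7% of all tested genes. Pde8b, a cAMP-specific enzyme of high affinity, had the largest fold change of the whole pathway list, from 1.83, 1.76 and 1.76 CPM in WT to 5.40, 7.37 and 5.60 CPM in cKO (log2 fold change 1.78, SE 0.18, edgeR adjusted p = 3.58e-06). Pde1b, the remaining calcium-calmodulin enzyme, rose by 0.49 (9.51 ± 1.19 to 13.3 ± 1.19 CPM, edgeR adjusted p = 0.00313) and Pde7b by 0.40 (16.7 ± 1.20 to 22.0 ± 0.911 CPM, edgeR adjusted p = 0.00123). Pde10a fell by 0.42 on the log2 scale (16.5 ± 0.660 to 12.3 ± 1.06 CPM, edgeR adjusted p = 0.00196). Pde8a, the most abundant of this role per length, did not pass the test (7.34 and 6.98 RPKM, edgeR adjusted p = 0.462). Pde2a, Pde4c and Pde11a were too low to test.

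Downstream of the kinase, 2 of 6 tested genes rose and 2 fell, where 21.9% and 21.8% of all tested genes did. Ppp1r12b, a targeting subunit of myosin phosphatase, was at 49.1, 51.3 and 48.8 CPM in WT and at 108.6, 84.8 and 102.0 CPM in cKO (log2 fold change 0.99, SE 0.078, edgeR adjusted p = 3.93e-07). Mrvi1, also named Irag1, encodes the substrate through which PRKG1 acts on the IP3 receptor, and rose from 71.6, 68.5 and 63.9 CPM to 95.4, 92.8 and 91.0 CPM (0.45, SE 0.053, edgeR adjusted p = 1.36e-05). Vasp, an actin regulator that PRKG1 and protein kinase A phosphorylate and the most abundant of this role per length, was at 294 ± 16.8 and 269 ± 5.11 CPM (-0.13, edgeR adjusted p = 0.0422), a call lost under 6 of 13 alternatives. The mean of Ppp1r12a fell as well, from 185 ± 1.21 (WT) to 167 ± 3.23 CPM (cKO), a log2 fold change of -0.15 (edgeR adjusted p = 0.0113). The exporter Abcc5, which carries cGMP out of cells, rose from 34.2 ± 2.27 to 45.2 ± 3.45 CPM (0.40, edgeR adjusted p = 5.18e-04), while Abcc4, the more abundant exporter per length (4.76 against 3.20 RPKM in WT), did not pass the test (30.4 ± 1.06 and 31.5 ± 1.10 CPM, edgeR adjusted p = 0.528).

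**Figure D4:**
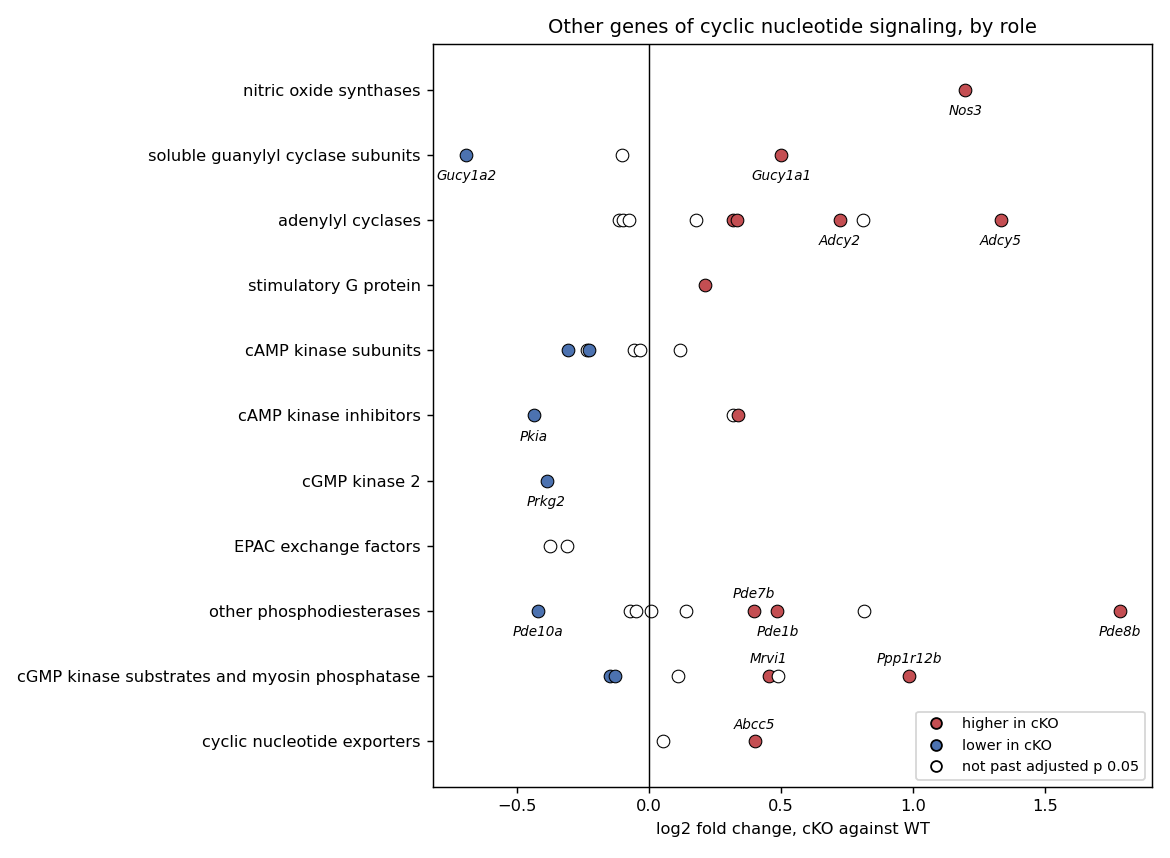
Log2 fold change, cKO against WT, of the 43 tested genes of the wider pathway, 1 row per role, filled red where higher and blue where lower in cKO at an adjusted p under 0.05 and open otherwise. Nos3, Adcy5 and Pde8b lie beyond 1 on the log2 scale, and Gucy1a1 and Gucy1a2 stand on opposite sides of 0.

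Markers of cell types and states moved between the groups along with these genes. The muscle markers differed widely in level. In WT replicate 1, Tagln and Acta2 were at 804 and 701 RPKM, but the more specific Myh11, Lmod1 and Cnn1 were at 11.6, 10.0 and 23.3 RPKM and the muscle co-activator Myocd at 0.819 RPKM. In the same library the fibroblast markers Col1a1, Col3a1 and Pdgfra were at 436, 144 and 73.8 RPKM. The epithelial markers Krt8 and Krt18 were at 150 and 188 RPKM and the leukocyte marker Lyz2 at 335 RPKM. Transcripts known from other cell types were therefore also abundant. Of 10 smooth muscle markers 5 were higher and 1 lower in cKO, and their summed level was 117% to 131% of the WT mean in the cKO libraries and 98.6% to 101% in the WT libraries. Tagln and Acta2, which made up most of this sum, rose by 0.32 and 0.26 on the log2 scale. Des, Lmod1 and Myh11 rose by 1.21, 0.80 and 0.74, and Smtn was lower (-0.29). Cnn1, Myocd, Actg2 and Synpo2 did not pass the test. Summed levels in cKO were 135% to 138% of the WT mean for fibroblast markers (8 of 11 tested higher, 1 lower, WT 93.7% to 105%), 153% to 164% for leukocyte markers (10 of 10 higher, WT 97.6% to 105%), 124% to 144% for pericyte markers (5 of 6 higher, 1 lower, WT 95.7% to 103%) and 113% to 126% for epithelial markers (6 of 10 higher, 1 lower, WT 94.9% to 103%). The T cell marker Cd3e and the B cell marker Cd79a had at most 5 counts in any library.

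In the other direction, cell cycle genes were at 61.3% to 63.1% of the WT mean in cKO (8 of 8 lower, WT 95.2% to 104%) and mesothelial markers at 71.7% to 75.3% (3 of 6 lower and none higher, WT 97.9% to 102%). Endothelial markers were at 96.7% to 102% in WT and, as given above with Nos3, lower in cKO through Kdr. Markers of interstitial pacemaker cells were at 86.7% to 103% in cKO and 97.5% to 103% in WT (2 of 3 tested higher). Genes of the dissociation response were at 127% to 143% in cKO and 92.2% to 109% in WT (7 of 10 higher, 1 lower). In the cKO group means, Prkg1 was at 160% of its WT mean, Pde5a at 158%, Pde1a at 128%, Pde3a at 126% and Npr2 at 123%. The lists are sums of several genes in single libraries, so their percents and those of the members are not like for like. The part of cell makeup in the members' values was not tested.

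**Figure D5:**
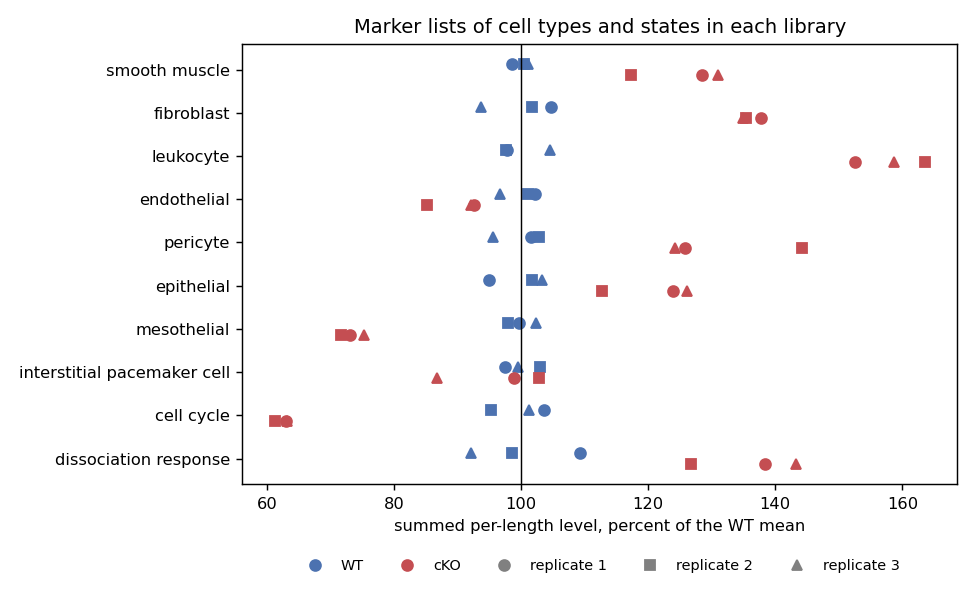
Summed per-length level of 10 marker lists in each library, as a percent of the WT mean, with WT in blue, cKO in red and marker shapes for replicate numbers. In cKO the leukocyte list is at 153% to 164%, the smooth muscle list at 117% to 131% and the cell cycle list at 61.3% to 63.1%.

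Other genes at the same places had little part in the counts. In GENCODE M21, no member shared exon bases with another gene on its strand. On the opposite strand, 5 genes overlapped exons of Pde5a, Pde3a, Npr1, Npr2 and Npr3 and had between 0 and 11 counts per library. At most 0.61% of the 50-base stretches in a member's transcripts, in Pde5a, also occurred in transcripts of another gene. The counts themselves were made over GENCODE M18, where Prkg1 has 7799 exon bases against 10861 in M21. For Prkg1 these checks therefore do not describe exactly the exons that were counted.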

How the data were processed

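The authors deposited 1 table of whole-number counts per gene from 6 strand-specific total RNA libraries. Per the file headers, reads on exons were counted with featureCounts 1.6.4 in reverse-stranded mode (option 2) over GENCODE M18, and the submitters' notes name cutadapt, HISAT2 and GRCm38.p5. At its default settings featureCounts discards reads with more than 1 mapping place or gene. Symbols came from GENCODE M21 of the same build (54079 of 54232 genes, 99.7%), and no sample column was left out. Groups followed the labels.

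From the counts, edgeR 4.0.16 in R 4.3.3 gave the quasi-likelihood F test (two-sided, TMM, filterByExpr), adjusted by Benjamini-Hochberg over 15376 genes with a threshold of 0.05. RPKM used the table's exon lengths. The script was tested on simulated counts. DESeq2 1.42.0, limma-voom (limma 3.58.1), other scalings, filters, thresholds, a replicate block and leaving out single libraries were alternatives; leaving out libraries for shares and the alternatives for other pathway genes were chosen after seeing the data.

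The members and lists were chosen with earlier results of these data known. Named were all members, the 16 called pathway genes with the largest change, the most abundant gene of each role, and Pbrm1. Ppp1r12a was added after the values were seen and was not put through the alternatives. RefSeq start windows (GRCm38.p6) were given for 9 of the 10 members. The window of Pde5a is not printed because 211 of its 250 bases lie in a GENCODE exon. Figures were drawn with matplotlib 3.10.9.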

Additional observations from a re-analysis of the deposited data

How the results depend on the processing

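Of 429 values of single genes under 13 alternatives each, 410 kept their direction and their side of the threshold, 9 lost the call (Vasp 6 times, Adcy2 2 times, Gucy1a2 once), 4 gained it in the same direction (Rapgef3 each time) and 6 changed sign, of which Npr3 without cKO replicate 2 also gained the call. Prkg1, Pde5a, Pde3a, Pde1a and Npr2 kept both under all 13. The count of members called stayed at 5 under each alternative except 6 without cKO replicate 2, through Npr3, and 0 when an absolute log2 fold change over 1 was also required, a limit that left 998 of all genes and 3 other pathway genes. When libraries were left out in turn, the count of all genes called ran from 5532 (without WT replicate 2) to 7054 (without cKO replicate 2), and DESeq2 called 5307. Sign changes came only from leaving out single libraries, with log2 fold changes from -0.0495 to 0.0792 for Pde4b, from -0.43 to 0.43 for Npr3, from -0.13 to 0.0051 for Pde8a and from -0.18 to 0.0083 for Gucy1b1. Likewise, the share in cKO minus that in WT ran from -0.329 to 1.64 percentage points for Pde3a, from -0.375 (without cKO replicate 2) to 2.73 for Pde1a and from -4.05 (without cKO replicate 2) to 1.24 for Npr3. The cause was not tested. Same-numbered libraries did not deviate together (r = -0.0316, 0.0442 and 0.111), and only WT replicate 3 correlated best with its own number. A replicate block gave 6908 genes, 5 members and 23 other pathway genes called, 6617 of the genes being called without the block. Prkg1, Gucy1a2, Nos3 and Adcy2 rest on few counts, and Pde1c on too few to compare.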
